A study of Urochloa humidicola with 8 samples.

Results

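Pairs of transcripts with neighbouring numbers whose abundances ran in opposite directions across leaves were examined in Urochloa humidicola, a tropical forage grass. A pair consisted of asmbl_N and asmbl_N+1, both with a mean of at least 5 CPM (a transcript's rounded reads scaled to a common library total). It was taken as opposed when the Pearson correlation r of log2(CPM + 1) over the 8 libraries was under -0.8. Of 7356 neighbouring pairs at that level, 117 were opposed, and they held 232 of the 48695 transcripts of the series, 2 of them in a pair on either side. RNA came from the second extended leaf of 4 samples labelled high lignin and 4 labelled low lignin, picked for their forage quality and lignin production, and stranded mRNA libraries were sequenced on an Illumina HiSeq instrument. The labels give the tissue as young leaves for all 8, and the group is the one thing in which they differ. The sources used here give no genotype, plant age, growth condition or batch. They also do not say that samples of a group were separate plants, and p-values therefore rest on a spread between samples that may be partly technical.

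As background, lignin is the phenolic polymer that stiffens secondary cell walls and lowers the digestibility of forage. A transcript set assembled from RNA reads often holds several entries for 1 locus: splice forms, alleles and, in a polyploid such as this grass, copies from different subgenomes. Assemblers commonly number entries along a locus, so that neighbours in number can be neighbours or variants in the genome; whether that holds here is not stated in the labels. The transcripts carry a running number only, no file pairs them with genes, and no sequence was used here, so that no member could be given a function and the tissue label could not be checked against marker genes.

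Library totals ran from 7717993 to 10805639 rounded reads, and 3 reads corresponded to between 0.278 and 0.389 CPM, a limit that covers counting error only. Over the 17784 transcripts at 5 CPM or more, low lignin replicate 3 stood apart: its median Spearman correlation with the other libraries was 0.658, against 0.763 to 0.820 for the other 7. The members took between 0.742% (low lignin replicate 3) and 0.987% (low lignin replicate 2) of all reads. Their mean level had a median of 15.4 CPM and ran from 5.05 to 628 CPM, and their lengths had a median of 1511 bases, from 207 to 6068. The highest library of a member lay a median of 7.85-fold above its lowest on the CPM + 1 scale, with quartiles of 3.69 and 24.4. In 72 of the 232 members (31.0%) at least 1 library had fewer than 3 reads. In the other 160 every library had 3 reads or more. In whole leaves, fewer cells of a type and less RNA per cell cannot be told apart.

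The first question was whether neighbouring numbers were opposed more often than other pairs. They were opposed about as often: 1.59% of neighbouring pairs (117 of 7356; 95% Wilson interval 1.33% to 1.90%) against 1.55% of all 158126436 possible pairs of transcripts at 5 CPM or more, which is the average that random pairings would give. At larger distances the share was 1.48% for numbers 2 apart, 1.31% for 3, 1.52% for 5, 1.40% for 10, 1.37% for 50 and 1.75% for 99 apart. Relative to all pairs the share was 1.03, and it changed with the settings: 1.29 at a minimum of 1 CPM, 0.539 at a minimum of 20 CPM and 0.827 on deposited TPM. Under -0.9 there were 28 neighbouring pairs (0.381%, interval 0.2635% to 0.5496%, which includes the 0.266% of all pairs). Under -0.95, a limit added after seeing the data, there were 10 (0.136%, interval 0.0739% to 0.250%, against 0.0407% of all pairs). The intervals treat pairs as independent, although neighbouring pairs can share a transcript, so they are descriptive only. At the positive end the difference was larger, with r over 0.8 in 10.6% of neighbouring pairs, in 6.04% of pairs 2 apart, in 2.28% of pairs 99 apart and in 2.22% of all pairs.

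**Figure D1:**
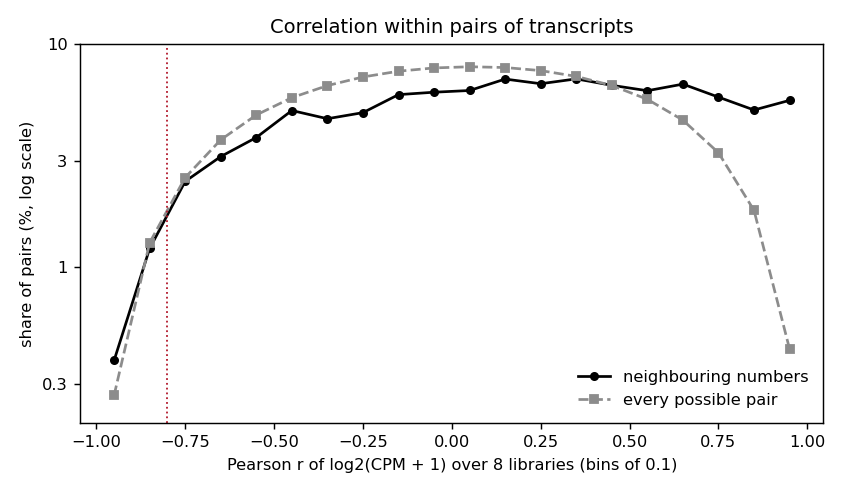
Share of pairs (log axis) in each bin of the Pearson correlation of log2(CPM + 1) over 8 libraries, for 7356 neighbouring-number pairs (black) and all 158126436 possible pairs (grey), with the limit of -0.8 dotted. The lines lie close together near -0.8, neighbours lie above in the lowest bin, and they lie well above at the positive end, where r was over 0.8 in 10.6% against 2.22%.

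The correlations that chose the members are given as a description. Their r ran from -0.992 to -0.8005 with a median of -0.851. On ranks the median Spearman coefficient was -0.72, from -0.99 to -0.05, and 40 of the 117 pairs lay under -0.8. Just inside the limit lay asmbl_27561 with asmbl_27562 (r = -0.8005) and asmbl_7242 with asmbl_7243 (-0.8011). Just outside lay asmbl_9560 with asmbl_9561 (-0.79997) and asmbl_38987 with asmbl_38988 (-0.7994). The pairs were spread along the numbers, with 6 to 19 in each of 10 equal stretches of the number range.

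Length, which the choice did not use, was more alike within opposed pairs than within other neighbours. In 52 of 117 opposed pairs (44.4%; Wilson interval 35.8% to 53.5%) the lengths of the members were within 1.1 times of each other, against 1541 of 7239 other neighbouring pairs (21.3%; 20.4% to 22.2%). Among all 2450575 opposed pairs of any 2 transcripts, whatever their numbers, the share was 8.71%, as it was among all possible pairs whatever their correlation (8.71%). The median ratio of the longer to the shorter member was 1.15 in opposed neighbours, 1.48 in other neighbours and 1.81 in opposed pairs of any 2 transcripts. With pairs chosen on deposited TPM the share was 29.2% of 120 pairs, and among the 10 neighbouring pairs under -0.95 it was 80%. The limit of 1.1 was set after the lengths were seen, and pairs may share a locus, so no test was made.

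**Figure D2:**
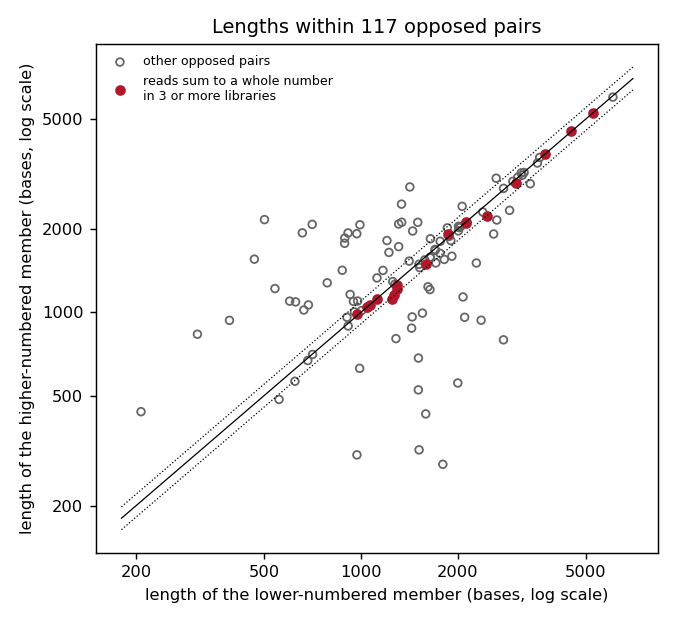
Length of the lower-numbered against the higher-numbered member (bases, both axes log) in the 117 opposed pairs, with the line of equal length and, dotted, 1.1 times either way. Of these pairs 52 lie between the dotted lines, and 16 of the 17 filled points, the pairs whose estimated reads summed to a whole number in 3 or more libraries, lie there too.

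The 6 pairs with the lowest r are described first, and in 5 of them the members differed little in length. asmbl_40367 (4487 bases) was at 46.9, 48.9, 39.4 and 52.4 CPM in high lignin replicates 1 to 4, and at 0, 0.202, 0 and 38.1 CPM in low lignin replicates 1 to 4. asmbl_40368 (4517 bases) had no rounded read in any high lignin library, 25.4, 47.5 and 41.9 CPM in low lignin replicates 1 to 3 and again none in replicate 4. In rounded reads each library thus held 1 of the 2 entries at 25.4 CPM or more and at most 0.202 CPM of the other. Before rounding, both entries had some estimated reads in at least 5 libraries. The summed level stayed between 25.4 and 52.4 CPM (CV 0.200, against 0.842 and 1.44 for the members). CV is the SD over the mean, here over 8 libraries. asmbl_42344 (3213 bases) was at 46.9 CPM in high lignin replicate 3 and 37.9 CPM in low lignin replicate 1, and between 0.105 and 0.606 CPM in the other 6 libraries. asmbl_42345 (3202 bases) was at 2.20 and 1.44 CPM in those 2 libraries and between 29.8 and 49.5 CPM in the other 6. The sum had a CV of 0.148, and the 2 libraries with the rarer entry came from different groups.

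asmbl_21768 (2391 bases) had 29.7 and 25.2 CPM in high lignin replicates 1 and 2 and no rounded read in the other 6 libraries. asmbl_21769 (2303 bases) had none in those 2, 16.6 and 12.8 CPM in high lignin replicates 3 and 4, and 18.3, 18.6, 9.59 and 17.95 CPM in low lignin replicates 1 to 4. High lignin replicates 1 and 2 were thus set apart from all other libraries. asmbl_29241 (3535 bases) was read in low lignin replicate 3 alone, at 58.0 CPM. asmbl_29242 (3464 bases) had no read there, 32.4, 27.8, 26.6 and 31.6 CPM in high lignin and 21.7, 20.3 and 17.3 CPM in low lignin replicates 1, 2 and 4. asmbl_7482 (3174 bases) was at 11.7 and 11.4 CPM in high lignin replicates 1 and 2 and at 6.86 and 12.9 CPM in low lignin replicates 2 and 4, with no rounded read elsewhere. asmbl_7483 (3131 bases) was at 8.42, 6.96, 17.1 and 19.1 CPM in exactly the other 4 libraries, 2 of each group, so its split crossed the lignin groups.

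The remaining pair of these 6 changed by degrees. asmbl_21024 (2642 bases) was at 5.23, 6.07, 17.1 and 45.3 CPM in high lignin and 13.4, 12.5, 69.4 and 15.6 CPM in low lignin. asmbl_21025 (2156 bases) was at 38.3, 30.9, 17.4 and 12.1 CPM in high lignin and 23.9, 18.9, 7.36 and 19.2 CPM in low lignin. The lowest values of the second entry fell in the libraries with the highest values of the first, high lignin replicate 4 and low lignin replicate 3.

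**Figure D3:**
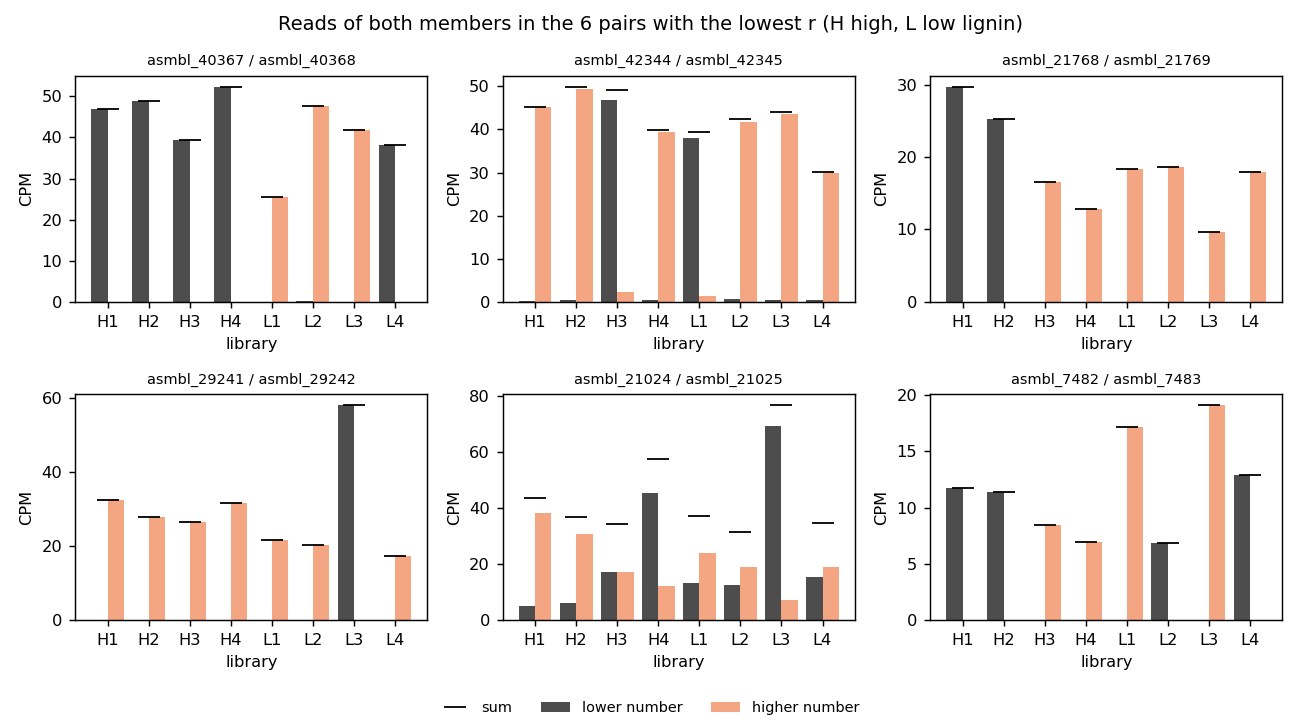
CPM of the lower-numbered (dark bars) and higher-numbered member (light bars) and their sum (black marks) in each library, H1 to H4 high and L1 to L4 low lignin, for the 6 pairs with the lowest r. In asmbl_40367 with asmbl_40368 each library holds 1 of the 2 entries at 25.4 CPM or more and at most 0.202 CPM of the other. The sum of that pair stays between 25.4 and 52.4 CPM. In asmbl_29241 with asmbl_29242 low lignin replicate 3 alone holds the first.

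Complete exchange of this kind was counted over all pairs. In 6 opposed pairs (5.13%) every library had 1 member at 1 CPM or more and the other under 3 reads, against 1 of 7239 other neighbouring pairs (0.0138%). A count of this kind follows in part from the choice by r. All 6 were of similar length, which the choice did not use. Besides the 4 pairs above they were asmbl_20476 with asmbl_20477 and asmbl_24349 with asmbl_24350, which are named because of the small count. asmbl_20476 (1274 bases) was at 62.0 CPM in low lignin replicate 1 and had no rounded read elsewhere, while asmbl_20477 (1264 bases) had none there. asmbl_24349 (1578 bases) was likewise read in low lignin replicate 1 alone, at 58.9 CPM, where asmbl_24350 (1547 bases) had none. In 3 of the 6 pairs a single library, always of the low lignin group, held the rarer entry. In 16 opposed pairs (13.7%) each member was found without the other in at least 1 library, 15 of them among the 52 pairs of similar length and 1 among the other 65, against 1.28% of other neighbouring pairs.

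The second question was whether the sum of a pair was steadier than its members. A negative r partly fixes this, so the comparison is with opposed pairs of any numbers. Those pairs were not matched to the opposed neighbours on r. Under -0.8 lay 1.59% of neighbouring pairs and 1.55% of all pairs, but under -0.95 lay 0.136% and 0.0407%. The comparison thus removes the effect of r only in part, and how much of it remains was not tested. The CV of the summed CPM had a median of 0.313, from 0.0714 to 1.25, where the lower-numbered members had a median of 0.627 and the higher-numbered ones 0.597. The sum was steadier than the steadier member in 101 pairs (86.3%), against 75.5% of all opposed pairs of any 2 transcripts. The CV of the sum over that of the steadier member had a median of 0.615 in opposed neighbours, 0.725 in opposed pairs of any 2 transcripts and 1.01 in other neighbours. It was 0.501 in the 52 opposed neighbours of similar length, of which 50 had the steadier sum, and 0.742 in the other 65, of which 51 did. In the 10 neighbouring pairs under -0.95, of which 80% were of similar length, it was 0.429, so length and r were not separated here. Opposed pairs of any 2 transcripts with similar length had 0.724, so that in pairs of any numbers similar length alone did not go with a steadier sum. The ranges of the members in CPM were also more alike in opposed neighbours of similar length (median ratio of the wider to the narrower 1.60) than in those of other length (2.85) or in opposed pairs of any 2 transcripts (2.83).

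**Figure D4:**
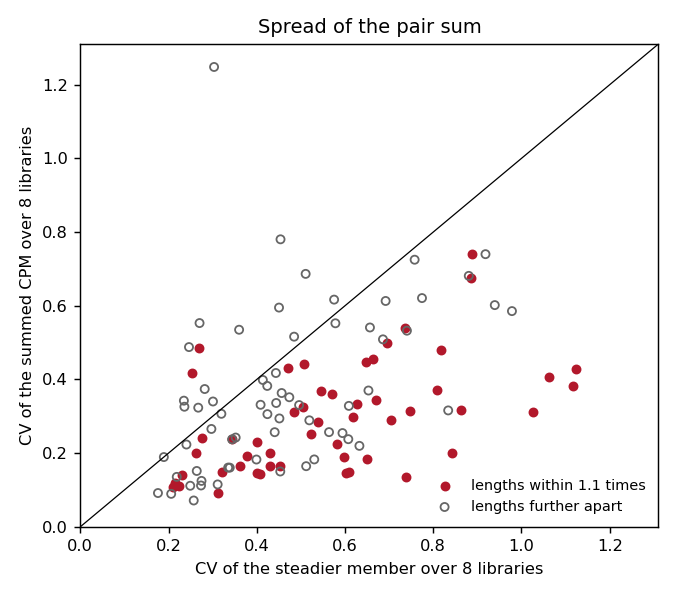
CV over 8 libraries of the summed CPM against that of the steadier member in the 117 opposed pairs, filled for lengths within 1.1 times and open for others, with the line of equality. Of the 52 filled points 50 lie below the line, and of the 65 open points 51 do.

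The steadiest sums were found in pairs of both kinds. asmbl_37010 (2362 bases) was at 32.4, 32.8, 32.9 and 25.3 CPM in high lignin and 26.5, 31.6, 52.3 and 28.4 CPM in low lignin. asmbl_37011 (936 bases) was at 12.8, 16.0, 9.46 and 20.2 CPM in high lignin and 16.7, 14.1, 0.0969 and 20.5 CPM in low lignin. The sum kept between 42.4 and 52.4 CPM (CV 0.0714), and low lignin replicate 3 was the highest library of the first entry and nearly lacked the second. asmbl_3775 (1447 bases) was at 9.42, 6.18, 5.83 and 16.9 CPM in high lignin and 23.5, 35.0, 15.4 and 16.7 CPM in low lignin. Its neighbour asmbl_3776 (1967 bases) was at 100.5, 99.1, 92.3 and 85.3 CPM in high lignin and 72.9, 49.0, 74.2 and 90.1 CPM in low lignin, with a CV of 0.0894 for the sum. Low lignin replicate 2 was the extreme library of both entries. The other pairs with the steadiest sums were asmbl_16802 with asmbl_16803 (CV 0.0916) and asmbl_11910 with asmbl_11911 (0.0918), whose members varied with CVs between 0.176 and 0.383.

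Among the 6 opposed pairs with the highest summed CPM, the sum was little or no steadier than the steadier member. The CV of the sum over that of the steadier member was 0.959 in asmbl_40102 with asmbl_40103, 0.928 in asmbl_43886 with asmbl_43887 and 0.957 in asmbl_285 with asmbl_286, and above 1 in the other 3. asmbl_36601 (1573 bases) was at 661, 349.7, 328 and 504 CPM in high lignin and 965, 1117, 189 and 912 CPM in low lignin. asmbl_36600 (1642 bases) was at 45.9, 52.3, 61.2 and 45.9 CPM in high lignin and 39.1, 49.8, 84.4 and 44.5 CPM in low lignin. The CV of their sum was 0.485, above the 0.270 of asmbl_36600. asmbl_40103 (1595 bases) ran from 274 CPM in low lignin replicate 3 to 732 CPM in low lignin replicate 2, while asmbl_40102 (1916 bases) ran from 3.43 to 19.6 CPM with its highest value in low lignin replicate 3. asmbl_43886 (1338 bases) ran from 252 CPM in low lignin replicate 3 to 598 CPM in high lignin replicate 1, while asmbl_43887 (2116 bases) ran from 7.22 to 24.3 CPM in the same 2 libraries, in reverse order. In asmbl_23904 with asmbl_23905, asmbl_41069 with asmbl_41070 and asmbl_285 with asmbl_286, low lignin replicate 3 was again an extreme of both members. In asmbl_285 (1204 bases) it stood at 3.68 CPM where the other 7 libraries had between 50.8 and 554 CPM. Its neighbour asmbl_286 (1817 bases) was at 21.7 CPM there and between 0.555 and 5.83 CPM elsewhere.

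In both runs of 3 consecutive members the outer entries correlated positively with each other. Both were chosen for a low r with the same middle entry, so this follows in part from the choice. asmbl_24447 (1121 bases) had 8.16, 6.96, 9.46 and 8.21 CPM in high lignin and 6.74, 8.07, 0 and 4.90 CPM in low lignin. Its neighbours asmbl_24446 (1124 bases) and asmbl_24448 (1331 bases) reached 14.2 and 15.3 CPM in the library where it had no rounded read, low lignin replicate 3, and stayed at or under 6.41 CPM in the other 7. The outer entries correlated at r = 0.75, with low lignin replicate 3 the highest library of both. On ranks they ran only weakly against the middle entry (Spearman coefficients -0.21 and -0.36). asmbl_41999 (2019 bases) was at 18.3, 4.42, 19.6 and 1.14 CPM in high lignin and 2.54, 1.21, 0.678 and 1.02 CPM in low lignin. Its neighbours asmbl_41998 (1855 bases) and asmbl_42000 (2024 bases), which correlated at r = 0.78, were lowest in high lignin replicates 1 and 3, at 0.209 and 0.648 CPM for the first and 5.02 and 0 CPM for the second.

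The estimated reads themselves were examined for reads shared within a pair. As background, a read that fits several entries equally is divided among them by the estimation, so that an entry gets a count that is not whole; where 2 entries divide reads only between themselves, their sum is whole again. Of the values above 0 of the members, 60.2% differed from a whole number by more than 0.02 reads, against 56.1% over all transcripts at 5 CPM or more. In 69 of the 117 opposed pairs both members had such a value in at least 1 library. Over the 403 values where both did, the sum was whole to within 0.02 reads in 132 (32.8%). Among opposed pairs with r under -0.9 it was whole in 20% of 85 values. The share was 24.6% in other neighbouring pairs, which lies between the values at those limits, 7.58% in pairs 2 numbers apart and 4.04% in pairs 99 apart. It was 45.1% in opposed pairs of similar length and 9.35% in opposed pairs of other length. In other neighbours it was 33.2% with similar length and 20.2% with other length. Whole sums of this kind were thus found in neighbours whether opposed or not, and more often in those of similar length. In pairs of other length they were less frequent in opposed than in other neighbours.

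In 17 opposed pairs (14.5%) the sum was whole in 3 or more libraries, and 16 of these 17 were of similar length; the share was 9.96% in other neighbouring pairs. In 15 of the 17 the sum was whole in every library in which both values were not. 4 pairs had a whole sum in all 8 libraries, and they are named because of the small count: asmbl_7242 with asmbl_7243 (3724 and 3727 bases), asmbl_7732 with asmbl_7733 (5267 and 5273), asmbl_15485 with asmbl_15486 (2120 and 2114) and asmbl_18293 with asmbl_18294 (1298 and 1210). asmbl_7732 was at 52.1, 0.773, 0.777 and 46.8 CPM in high lignin and 10.3, 19.0, 0.0969 and 57.5 CPM in low lignin. asmbl_7733 was at 68.2, 140.5, 136 and 57.6 CPM in high lignin and 117, 89.3, 109 and 34.2 CPM in low lignin. The 3 libraries that nearly lacked the first entry came from both groups, and the sum had a CV of 0.145. For such pairs the division of reads between the entries is an estimate and the sum is not, so the level of either entry is less certain than their sum. asmbl_40367 with asmbl_40368 also had whole sums, in all 5 libraries where both values were not whole. In asmbl_21768 with asmbl_21769 and asmbl_29241 with asmbl_29242 no library had values that were not whole in both members. What part divided reads have in the opposition was not tested.

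Single libraries differed in how much of the opposition they carried. Low lignin replicate 3 was furthest from the pair's median log2 ratio in 69 of the 117 pairs, low lignin replicate 1 in 16, and the other 6 libraries in 2 to 8 each. Without low lignin replicate 3, 57 of the 117 pairs still had an r under -0.8 over the other 7 libraries, of them 30 of the 52 pairs of similar length and 27 of the other 65. Without any other single library between 103 and 109 did. In 34 pairs, 16 of them of similar length, r stayed under -0.8 whichever library was left out. By deposited TPM, which is per effective length, the same member was the higher one in all 8 libraries in 30 pairs. In 34 pairs it changed in 1 library, in 28 in 2, in 17 in 3, and in 8 pairs each member was the higher in 4 libraries. Of the 34 changes in a single library, 19 were in low lignin replicate 3 and 7 in low lignin replicate 1.

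**Figure D5:**
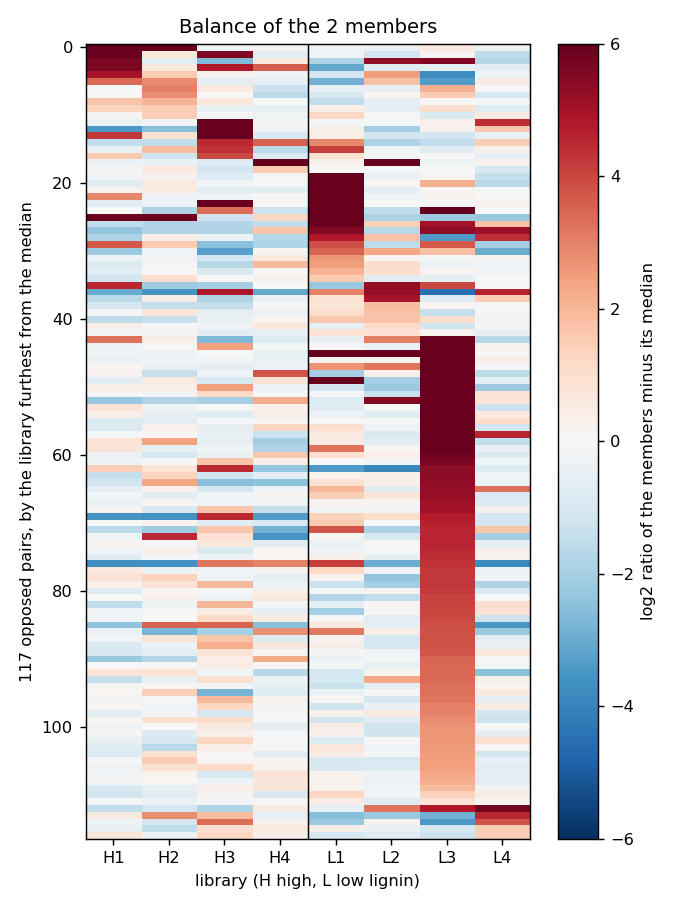
Log2 ratio of the 2 members of each opposed pair minus its median over the libraries (colour, with values beyond 6 shown as 6, and the sign set so that the furthest library is positive) in libraries H1 to H4 (high lignin) and L1 to L4 (low lignin). Rows are the 117 pairs sorted by the furthest library, which was L3 in 69 and L1 in 16, while no high lignin library was the furthest in more than 6.

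A further check was made on libraries that took no part in the choice. Pairs were chosen by the same limits in 7 libraries, and in the left-out one it was asked whether the members lay on opposite sides of their means over those 7. They did in 59.8% (809 of 1352, pooled over the 8 libraries, in which the same pair can count up to 8 times), against 44.0% of all neighbouring pairs. The share ran from 54.3% with low lignin replicate 4 left out to 66.9% with high lignin replicate 1 left out, and in each of the 8 it lay above that of all neighbours (42.2% to 45.5%). It was 66.1% in chosen pairs of similar length and 55.1% in the others, against 47.0% in all neighbours of similar length. At a minimum of 20 CPM the share in chosen pairs was 47.3% of 224. All neighbouring pairs include many with a positive r (over 0.8 in 10.6%). Opposed pairs of any numbers were not put through this check, so it does not tell neighbours from other opposed pairs. No test was made, since pairs are not independent of each other.

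The comparison of the study, high against low lignin, was then made for the members, a contrast the choice did not use. By edgeR's quasi-likelihood test 0 of the 218 members tested had an adjusted p under 0.05, and the share over all 27015 transcripts was also 0%. The smallest adjusted p of a member was 0.628. The unadjusted p was under 0.05 in 18 members (8.26%; 5.85% of all transcripts tested), 8 of them higher in high lignin (3.67%, against 3.16%) and 10 lower (4.59%, against 2.69%). The other 14 members did not pass the low-count filter; they include asmbl_40368 and asmbl_29241. The median absolute log2 fold change was 0.46 in the members tested and 0.41 over all transcripts, each below its median standard error (0.62 and 0.53). DESeq2, run without that filter, called 4 members, 1.86% of the 215 with an adjusted p, against 0.796% of all. Its unadjusted p was under 0.05 in 23 members (10.7%, against 7.47% of all), 9 of them higher in high lignin (4.19%, against 3.81%) and 14 lower (6.51%, against 3.66%). The 4 called, of which asmbl_3727 and asmbl_15758 lay nearest the threshold, were asmbl_15444 (DESeq2 adjusted p = 6.03e-06), asmbl_40368 (0.000202), asmbl_3727 (0.0359) and asmbl_15758 (0.0495). asmbl_3727 (1491 bases), named because of the small count, was at 0.314, 0.331, 0 and 0 CPM in high lignin and 4.20, 7.07, 47.3 and 0 CPM in low lignin, with most of its reads in low lignin replicate 3. In 6 members (2.75%) the values of the groups did not overlap, against 4.26% of all transcripts tested.

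The balance within a pair, as the log2 ratio of its members, was compared in limma over all 7356 neighbouring pairs. The adjusted p was under 0.05 in 0 opposed pairs and in 0% of all, and the smallest of an opposed pair was 0.613. The unadjusted p was under 0.05 in 10 opposed pairs (8.55%, against 7.31% of all neighbouring pairs), with the ratio of lower to higher number larger in high lignin in 3 (2.56%, against 3.43%) and smaller in 7 (5.98%, against 3.89%). The median absolute difference in the log2 ratio was 1.13 with a median standard error of 1.23 in opposed pairs, and 0.46 with 0.55 in all neighbouring pairs. Members with a low r move in opposite directions, so larger differences and errors of their ratio follow in part from the choice. In 5 of the 117 (4.27%) the ratios of the groups did not overlap, against 4.45% of all neighbouring pairs, and 4 of these are described; the fifth was asmbl_29241 with asmbl_29242 (limma adjusted p = 0.786). asmbl_15443 (1902 bases) was at 81.8, 63.2, 77.4 and 36.7 CPM in high lignin and 6.85, 49.6, 9.59 and 36.0 CPM in low lignin. asmbl_15444 (1817 bases) was at 1.046, 0.331, 0.648 and 0 CPM in high lignin and 39.2, 8.68, 24.1 and 8.05 CPM in low lignin. All low lignin libraries lay above all high lignin libraries in asmbl_15444, and its log2 fold change, high minus low, was -5.24 with a standard error of 0.99 (edgeR quasi-likelihood, unadjusted p = 0.000581, adjusted 0.628). The log2 ratio of the pair differed by 5.23 with a standard error of 1.06 (limma, unadjusted p = 0.00115, adjusted 0.613).

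asmbl_15758 (889 bases) was at 380.2, 78.9, 324 and 248 CPM in high lignin and 25.2, 70.2, 25.4 and 80.4 CPM in low lignin. asmbl_15759 (1776 bases) was at 1.046, 13.4, 2.07 and 4.45 CPM in high lignin and 58.8, 31.4, 9.50 and 33.8 CPM in low lignin. Each member overlapped between the groups through high lignin replicate 2, whereas the log2 ratio did not and differed by 4.94 with a standard error of 1.12 (limma, adjusted p = 0.631). asmbl_48060 (1097 bases) was at 133, 151, 101 and 71.2 CPM in high lignin and 44.2, 54.4, 67.2 and 73.2 CPM in low lignin. asmbl_48059 (600 bases) was at 7.43, 6.63, 12.4 and 13.7 CPM in high lignin and 24.6, 14.9, 13.4 and 15.9 CPM in low lignin, so that the ratio was lower in high lignin, by a log2 difference of -1.63 with a standard error of 0.54 (limma, adjusted p = 0.631). The fourth was asmbl_40367 with asmbl_40368, whose log2 ratio was between 5.34 and 5.74 in high lignin and at -4.72, -5.34, -5.42 and 5.29 in low lignin (difference 8.12, standard error 2.29, limma adjusted p = 0.631). The groups were separated by a narrow margin, since low lignin replicate 4 held the same entry as the high lignin libraries. Without that library its adjusted p in limma was 4.24e-05, and it was the 1 opposed pair among 2 called of all 7356 neighbouring pairs. Leaving out the 1 low lignin library that went against the split makes a smaller p all but certain. No group difference is therefore read from that value.

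The summed level of a pair was compared by edgeR's quasi-likelihood test over the sums of all 7356 neighbouring pairs. The adjusted p was under 0.05 in 0 opposed pairs and in 0% of all, and the smallest of an opposed pair was 0.577. DESeq2 called 81 of the 7284 sums it tested, a small share, and 0 of them were of opposed pairs (smallest DESeq2 adjusted p 0.0876). In edgeR the unadjusted p was under 0.05 in 7 opposed pairs (5.98%, against 8.09% of all neighbouring pairs), 6 higher in high lignin (5.13%, against 4.83%) and 1 lower (0.855%, against 3.26%). The median absolute log2 fold change of the sums was 0.24 in opposed pairs and 0.30 in all neighbouring pairs, where the members singly had 0.46. Opposite changes of the members cancel in their sum, so the smaller value in opposed pairs also follows in part from the choice by r.

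The number of pairs in which a library had the less common member as the higher one, by TPM, was 12, 11, 13 and 7 in high lignin replicates 1 to 4 and 23, 18, 45 and 12 in low lignin replicates 1 to 4. The means were 10.8 ± 2.63 in high and 24.5 ± 14.4 in low lignin (SD, n = 4), which did not pass the test (exact permutation p = 0.0857, two-sided, where the smallest p that 4 against 4 allows is 0.0286). At a minimum of 20 CPM, which left 17 pairs, the difference was -3.25 pairs and passed, with the smallest p possible (exact permutation p = 0.0286). That was 1 of the alternative settings, and the other 9 did not pass. The pairs counted were chosen on the same abundance values, so no group difference is read from this pass. The difference, high minus low, was -13.75 pairs with all libraries and -5.83 without low lignin replicate 3 (exact permutation p = 0.429, with the pairs chosen anew over 7 libraries).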

How the data were processed

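The deposited file of each of the 8 libraries holds, per the file headers, a length, an effective length, a TPM and an estimated count for each of 48695 assembled transcripts. The column names are those of a Salmon quantification, and 3 tools are named, with no role, per the submitters' processing notes: Salmon 0.7.2, StringTie 2.0.4 and FastQC 0.11.8. Genome build, transcript assembly, filters and strand setting: not given in the sources used here. Estimated counts deposited by the authors are not normalized and not all whole; they were rounded for CPM and all count tests. Their deposited TPM is per effective length and keeps no depth.

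Groups came from the treatment label, and replicate numbers from accession order. Correlations used log2(CPM + 1). Shares over every possible pair were counted in full, without random draws. Tests used R 4.3.3: edgeR 4.0.16 (filterByExpr, TMM, quasi-likelihood), limma 3.58.1 on log2 ratios with a pseudocount of 1 CPM, and DESeq2 1.42.0 as an alternative, all with Benjamini-Hochberg adjustment over every feature tested and a two-sided threshold of 0.05. Pair sums used the library totals and TMM factors of the transcript table. The fits were run on simulated data with planted changes. Those data varied less than the real ones, so the run does not show what the tests could detect here. The standard error of an edgeR fold change was its size divided by the root of F.

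The members and lists were chosen with earlier results of these data known. Pairs named are the 6 with the lowest r, the 6 with the highest summed CPM, the 4 with the steadiest sum, up to 4 with groups apart in the ratio, runs of 3, and the 2 on each side of the limit; others are named where the text says so. Alternatives were other limits, scalings, units, pseudocounts and left-out libraries.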

Additional observations from a re-analysis of the deposited data

Results flagged for a closer look

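In groups of 4, a library was picked out when its gap to the nearest other library, relative to the range of the group, passed Dixon's 95% limit of 0.829. This was checked 58 times, on 4 measures per library and on the log2 ratios of 25 named pairs, and 16 passed. All 25 pairs were chosen by an r under -0.8 over these same libraries, and 1 outlying library can produce such an r. The usual chance rate of about 1 in 20 therefore does not apply to their ratios, or to the measures counted over opposed pairs. No excess is read from the count.

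Of the measures per library, the number of opposed pairs left without a library was 57 for low lignin replicate 3, and 103 to 107 for the other low lignin libraries.

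Low lignin replicate 3 was picked out in 10 log2 ratios (lower over higher number). It lay at 5.88 in asmbl_29241 with asmbl_29242, at 3.07 in asmbl_21024 with asmbl_21025, at 5.603 in asmbl_37010 with asmbl_37011 and at 3.93 in asmbl_24446 with asmbl_24447, above the rest of its group. It also lay above in asmbl_36600 with asmbl_36601 at -1.15, in asmbl_40102 with asmbl_40103 at -3.74, in asmbl_23904 with asmbl_23905 at -1.20 and in asmbl_21768 with asmbl_21769 at -3.41. In the last, asmbl_21768 had no rounded read in any low lignin library. That ratio thus followed asmbl_21769 alone, at 9.59 CPM against 17.95 to 18.6 CPM in the rest of the group. Low lignin replicate 3 lay below in asmbl_285 with asmbl_286 at -2.28 and in asmbl_24447 with asmbl_24448 at -4.03.

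Low lignin replicate 1 was picked out at 3.997 in asmbl_42344 with asmbl_42345 and at -1.19 in asmbl_15758 with asmbl_15759. High lignin replicate 3 was picked out at 3.90 in asmbl_42344 with asmbl_42345, low lignin replicate 4 at 5.29 in asmbl_40367 with asmbl_40368, and high lignin replicate 2 at -4.70 in asmbl_40102 with asmbl_40103.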

How the results depend on the processing

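The number of opposed pairs, 117, was 295 at r under -0.7, 28 under -0.9 and 10 under -0.95 (the last added after seeing the data), and 335 at a minimum of 1 CPM and 17 at 20 CPM. With 1 library left out it was 122 to 188, over fewer libraries. Relative to all possible pairs the share was 1.03, and 1.43 under -0.9, 3.34 under -0.95, 1.29 at 1 CPM, 0.539 at 20 CPM, 0.827 on deposited TPM, and 0.915 to 1.01 with a library left out, so whether neighbours were opposed more or less often than other pairs changed with the level and the limit; the cause was not tested. The CV of the sum over that of the steadier member was 0.615, 0.429 under -0.95, and 0.505 (without low lignin replicate 3) to 0.643 with a library left out. The share of similar length was 44.4%, 80% under -0.95, 35.3% at 20 CPM, 29.2% on TPM, 54.7% at a length limit of 1.2 (added after seeing the data) and 37.0% to 47.5% with a library left out. Whole sums, a measure added after seeing the data, were at 32.8%, 20% under -0.9 and 29.5% to 35.5% with a library left out. Opposite deviation in the left-out library was 59.8%, and 47.3% at 20 CPM. The difference in less common members was -13.75 pairs, -3.25 at 20 CPM (17 pairs, exact permutation p = 0.0286, the smallest possible) and -24.1 to -5.83 with a library left out. The setting at 20 CPM was the only alternative that passed, and the other 9 did not. Members called were 0, and 4 with DESeq2. With a library left out they were 0 to 0, pair sums 0 to 0 and pair ratios 0 to 1. The 1 was asmbl_40367 with asmbl_40368 when low lignin replicate 4 was left out, among 2 called of all 7356 pairs. That library was the only low lignin one that went against the split of this pair. Without high lignin replicate 4 or low lignin replicate 3, 1 of all pairs was called and none opposed. No paired analysis was possible because replicate numbers came from accession order and pair nothing. Depth limits members at few reads, where 3 reads are up to 0.389 CPM.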
